A study of Homo sapiens with 2 samples.

Results

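Tetraspanins are small membrane proteins that cross the membrane 4 times and gather integrins, immunoglobulin-type receptors and proteases into microdomains. The tetraspanin genes described here were all listed symbols made of TSPAN and a number, together with CD9, CD37, CD53, CD63, CD81, CD82 and CD151. This gave 29 genes of 33592 symbols in either count table, of which 28 were listed in the ZNF263 KO library and 29 in the WT library. They were compared between H1 (WA01) human embryonic stem cells with a homozygous knockout of ZNF263, a zinc finger transcription factor, labelled as 1-10 KO, and H1 cells with the WT genotype. The KO was made with Cas9, and each genotype was measured as 1 single-cell RNA library. Genotype and library therefore cannot be told apart, no test between genotypes was possible, and every value below describes these 2 libraries. All intervals are 95% intervals that cover counting error only.

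Some members sit at the cell surface and others in endosomes. CD9, CD81 and CD63 are carried on extracellular vesicles, CD151 binds laminin-binding integrins, and the TspanC8 subgroup (TSPAN5, TSPAN10, TSPAN14, TSPAN15, TSPAN17 and TSPAN33) escorts the protease ADAM10 to the surface. CD9 is also used as a surface marker of human pluripotent stem cells.

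Unique molecular identifiers (UMIs, 1 for each captured polyadenylated molecule) were summed over 2 sets of barcodes. The kept cells are barcodes with 1000 UMIs or more from 500 genes or more, of which no more than 20% were mitochondrial. They were 2286 KO cells with 3567881 UMIs and 2935 WT cells with 4650391 UMIs. The shallow barcodes had at least 250 and under 1000 UMIs and numbered 50551 in KO and 56837 in WT, with 21086560 UMIs in KO and 23784553 in WT. Levels are CPM, the UMIs of a gene per 1000000 UMIs of the set, not divided by transcript length, so they are compared between libraries and not between genes. In such sums, fewer cells making a transcript and less of it per cell cannot be told apart. A gene counted as measured at a mean of at least 5 CPM over both libraries. Both tables name nearly the same barcodes, 834126 in all. Of the kept cells, 20 barcodes were in both libraries, which is 0.875% of KO and 0.681% of WT cells. Of the shallow barcodes 4665 were in both, which is 9.23% in KO and 8.21% in WT. The log2 ratios of CD82 and TSPAN18 in both sets are given with and without them, and the values by depth, by mitochondrial share and by cell were not recomputed without them.

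ZNF263 itself was lower in the KO library with 27 UMIs in KO and 83 UMIs in WT kept cells, or 7.57 CPM in KO and 17.8 CPM in WT, a log2 ratio of -1.24 (interval -1.92 to -0.60). In shallow barcodes it held 180 UMIs in KO and 372 in WT, a log2 ratio of -0.87 (interval -1.14 to -0.61). Which bases of the gene were deleted is not given in the sources used here, so UMIs outside the deletion would not check the label. Summed over 8 markers fixed for pluripotent cells, the level was 2267 CPM in KO and 2216 CPM in WT kept cells. Of the 8, 2 were at least 1.5-fold higher in KO and 0 lower, beside 3.94% and 13.0% of all measured genes. Summed over 8 neural markers it was 36.2 CPM in KO and 194 CPM in WT kept cells. The 4 endothelial markers summed to 35.9 CPM in KO and 30.3 CPM in WT kept cells. Nearly all of that was KDR, at 33.9 CPM in KO and 27.7 CPM in WT, while PECAM1 was at 0 in both and CDH5 held 0 UMIs in KO and 1 in WT. The 4 leukocyte markers, CD37 and CD53 among them, summed to 2.52 CPM in KO and 2.80 CPM in WT kept cells, with PTPRC at 0 in both. In shallow barcodes PECAM1 held 1 UMI in each library, and PTPRC held 1 in KO and 2 in WT. Doublets were not removed.

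CD82 and TSPAN18 stood apart from the other tetraspanins. CD82, known as a metastasis suppressor that restrains cell movement, held 33 UMIs in KO and 150 UMIs in WT kept cells. That is 9.25 CPM in KO (interval 6.37 to 12.99) and 32.3 CPM in WT (interval 27.3 to 37.9), a log2 ratio of KO over WT of -1.80 (interval -2.39 to -1.25). TSPAN18, which binds the calcium channel ORAI1 in human endothelial cells and whose chick counterpart acts in the neural crest, held 29 UMIs in KO and 149 UMIs in WT kept cells. Its levels were 8.13 CPM in KO (interval 5.44 to 11.7) and 32.0 CPM in WT (interval 27.1 to 37.6), and its log2 ratio was -1.98 (interval -2.61 to -1.40). For both genes the KO interval lay wholly below the WT interval.

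The shallow barcodes, which are other barcodes of the same 2 libraries, gave the same direction with more UMIs. CD82 held 213 UMIs in KO and 966 UMIs in WT, or 10.1 CPM and 40.6 CPM, a log2 ratio of -2.01 (interval -2.23 to -1.79). TSPAN18 held 292 UMIs in KO and 1058 UMIs in WT, or 13.8 CPM and 44.5 CPM, a log2 ratio of -1.68 (interval -1.88 to -1.50). Of all measured genes, 65 of 10148 had a ratio at or below that of CD82 in shallow barcodes and 99 had one at or below that of TSPAN18. Without the barcodes found in both libraries, CD82 had log2 ratios of -1.79 in kept cells and -1.99 in shallow barcodes, and TSPAN18 had -1.97 and -1.72.

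**Figure D1:**
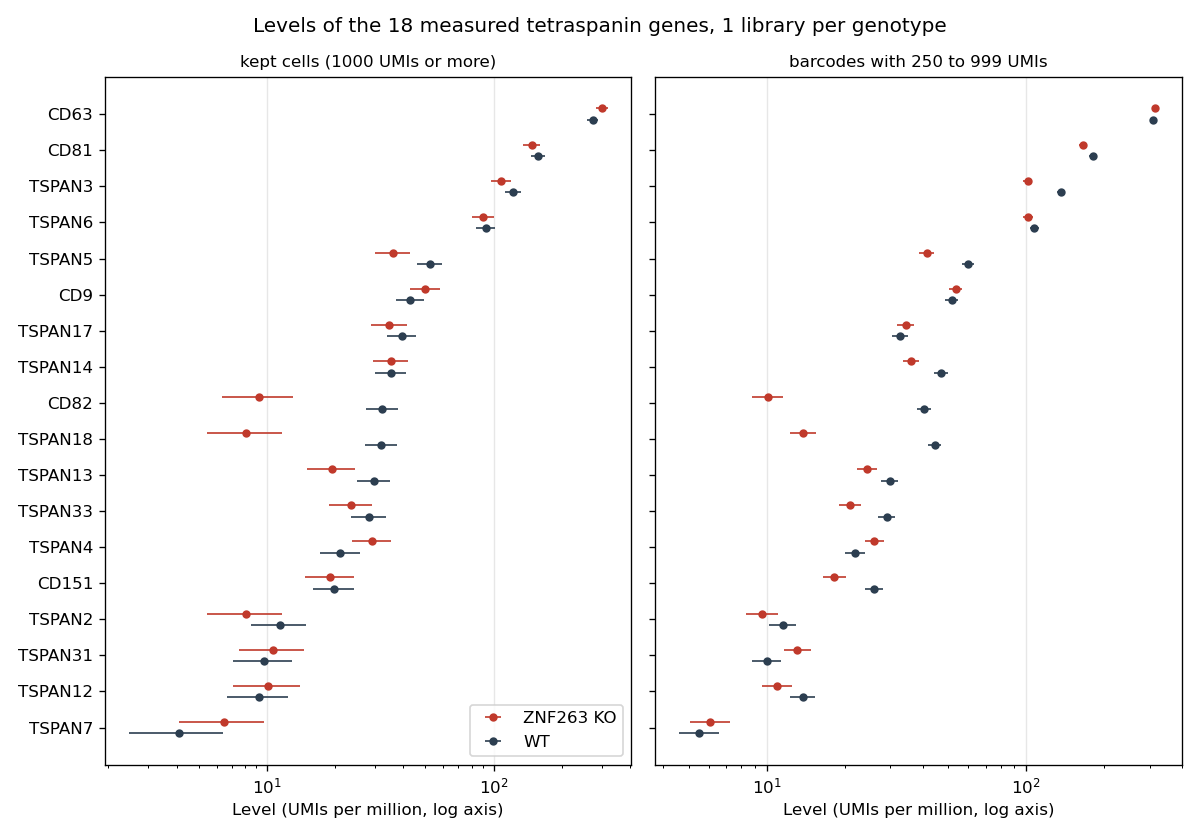
Level of each measured tetraspanin gene in CPM (log axis) in kept cells (left) and in shallow barcodes (right), with ZNF263 KO in red above WT in dark blue. Points are the 1 library of each genotype and bars are exact 95% Poisson intervals; the KO and WT points of CD82 and TSPAN18 lie far apart in both panels, at 9.25 and 32.3 CPM for CD82 and 8.13 and 32.0 CPM for TSPAN18 in kept cells.

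The levels of both genes were then followed by depth of the barcodes. In barcodes with at least 100 and under 250 UMIs TSPAN18 was at 12.6 CPM in KO and 43.6 CPM in WT. At 1000 to under 2000 UMIs it was at 8.46 CPM in KO and 37.1 CPM in WT, and at 2000 UMIs or more at 7.37 CPM in KO and 21.04 CPM in WT. The WT level was thus lowest in the deepest cells, where it rested on 31 UMIs and the log2 ratio was -1.51 (interval -2.85 to -0.36). CD82 was at 12.8 CPM in KO and 37.4 CPM in WT at 100 to under 250 UMIs, and at 6.45 CPM in KO and 28.5 CPM in WT at 2000 UMIs or more. The KO level of each gene was below the WT level in each of the 5 depth ranges.

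**Figure D2:**
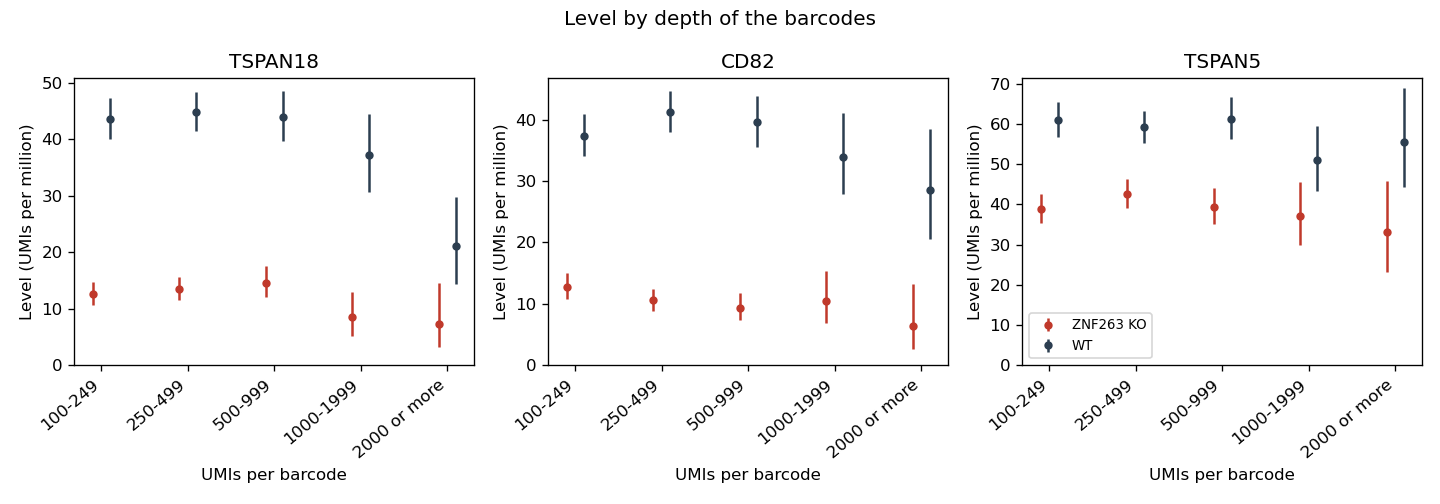
Level of TSPAN18, CD82 and TSPAN5 in CPM against the number of UMIs per barcode, with ZNF263 KO in red left of WT in dark blue. Bars are exact 95% Poisson intervals of the 1 library of each genotype; the WT level of TSPAN18 is 43.6 CPM at 100 to under 250 UMIs and 21.04 CPM at 2000 UMIs or more, and the KO points lie below the WT points throughout.

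Mitochondrial share differed between the libraries, with a median of 5.10% in KO and 4.36% in WT kept cells, so the genes were also read within ranges of it. In cells under 5% mitochondrial UMIs TSPAN18 held 9 UMIs in KO and 74 in WT, a log2 ratio of -2.32 (interval -3.50 to -1.32). In cells of 5% to 20% it held 20 UMIs in KO and 75 in WT, a log2 ratio of -1.87 (interval -2.66 to -1.14). CD82 had a log2 ratio of -1.48 (interval -2.39 to -0.66) in the lower range. In the higher range it had -2.13 (interval -2.95 to -1.38). Both genes were thus lower in the KO library on either side of that limit.

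Neural markers were also lower in the KO library. All 6 measured of the 8 neural markers were at least 1.5-fold lower in KO kept cells, beside 13.0% of all measured genes. The median log2 ratio of the 6 was -2.45. All 8 neural markers together summed to 45.005 CPM in KO and 218 CPM in WT shallow barcodes. Both measured primitive streak markers, EOMES and MIXL1, were lower too, and that list of 4 summed to 13.2 CPM in KO and 36.3 CPM in WT kept cells. The part of these cell states in the levels of the tetraspanins was not tested. Cells rich in CRABP1, a retinoic acid binding protein gene, were split off after the values were seen, as a description. In the 61 WT cells with at least 5 CRABP1 UMIs CD82 was at 126 CPM (14 UMIs, interval 68.8 to 211) and TSPAN18 at 17.97 CPM (2 UMIs, interval 2.18 to 64.9). In the other 2874 WT cells CD82 was at 30.0 CPM (interval 25.1 to 35.4) and TSPAN18 at 32.4 CPM (interval 27.4 to 38.1). Only 4 KO cells had at least 5 CRABP1 UMIs, and the other 2282 KO cells had 9.29 CPM of CD82 and 8.16 CPM of TSPAN18. The split leaves other cells with neural markers in place. The CRABP1-rich WT cells were deeper, with a median of 1569 UMIs against 1326 UMIs in the other WT cells.

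Cells with a UMI of each gene were counted after every kept cell was thinned to 1000 UMIs, which left out no cell. A TSPAN18 UMI was in 0.656% of KO cells (15 cells, interval 0.368% to 1.08%) and 3.17% of WT cells (93 cells, interval 2.56% to 3.87%). A CD82 UMI was in 1.09% of KO cells (25 cells, interval 0.709% to 1.61%) and 3.03% of WT cells (89 cells, interval 2.44% to 3.72%). Without thinning the shares were 1.22% of KO and 4.70% of WT cells for TSPAN18, and 1.44% of KO and 4.70% of WT cells for CD82. The leukocyte tetraspanin CD53, which these cells should lack, was in 0.0437% of KO and 0.0341% of WT thinned cells. No cell type lacking CD82 or TSPAN18 was at hand, and 1000 UMIs drawn from the pooled RNA of near-empty barcodes (10 to 100 UMIs) are expected to give a TSPAN18 share of 1.35% in KO and 4.52% in WT. For CD82 the expected share was 1.11% in KO and 3.61% in WT. The intervals of the CD82 shares included the expected ones, while those of the TSPAN18 shares lay wholly below them in both libraries. Thus no share of CD82 or TSPAN18 in cells thinned to 1000 UMIs was above the expected one. Transcripts of the cell itself and free RNA could therefore not be separated, and the shares are not counts of expressing cells. Cells with UMIs of both genes were few, at 1 KO cell and 2 WT cells. Of WT cells with a CD82 UMI 2.25% also held TSPAN18 (interval 0.273% to 7.88%), against 3.20% of WT cells with no CD82 UMI (interval 2.58% to 3.91%), a difference that was not detectable at this depth.

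The genes lie beside each other on chromosome 11 (hg38, coordinates of the RefSeq gene table of the same build). CD82 spans 44564409 to 44620358 and TSPAN18 spans 44726310 to 44932423, both on the plus strand, with 106 kb and 0 protein-coding genes between them. The long noncoding RNA LINC02704 lies in that gap and held 4 UMIs in KO and 10 in WT kept cells, and 16 UMIs in KO and 49 in WT shallow barcodes, where its log2 ratio was -1.44 (interval -2.35 to -0.60). It was under the minimum level in both sets. Of the measured genes around the pair the nearest 5 on either side were read, and the median ratio of these 10 was -0.29 (log2) in kept cells, ranging from -0.90 (CRY2) to 0.57 (PEX16). In kept cells 7 of these 10 were below 0 and 3 above, where the median of all measured genes was itself -0.14. At least 1.5-fold lower in KO kept cells were 3 of the 10 (EXT2, SLC35C1 at -0.59 and CRY2), beside 13.0% of all measured genes. None was higher, beside 3.94%. In shallow barcodes the median of the 10 was -0.12, beside -0.15 over all measured genes, ranging from -0.63 (EXT2) to 0.59 (MAPK8IP1). There 1 of the 10 was at least 1.5-fold lower and 1 higher, beside 10.1% and 2.79%.

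EXT2, a heparan sulfate polymerase gene and the nearest measured gene before CD82, was at 7.85 CPM in KO and 12.5 CPM in WT kept cells, a log2 ratio of -0.67 (interval -1.37 to 0.01), and at -0.63 (interval -0.90 to -0.37) in shallow barcodes. TP53I11, the nearest after TSPAN18, was at 12.9 CPM in KO and 16.6 CPM in WT kept cells, a log2 ratio of -0.36 (interval -0.92 to 0.18), and had -0.12 (interval -0.33 to 0.10) in shallow barcodes. The interval of neither neighbour in shallow barcodes reached those of CD82 and TSPAN18. TP53I11 is on the opposite strand, and its 3' end overlaps that of TSPAN18 by 76 bases in the RefSeq table and by 46519 bases in GENCODE 29, where its annotation is longer. Whether counting used the strand is not given in the sources used here, so reads in the overlap may have been assigned to either gene. Of the other genes around the pair, API5, TTC17, HSD17B12 and ALKBH3 had log2 ratios of -0.12, -0.44, -0.03 and 0.15 in shallow barcodes, and SLC35C1 and CRY2 had -0.50 and -0.31.

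**Figure D3:**
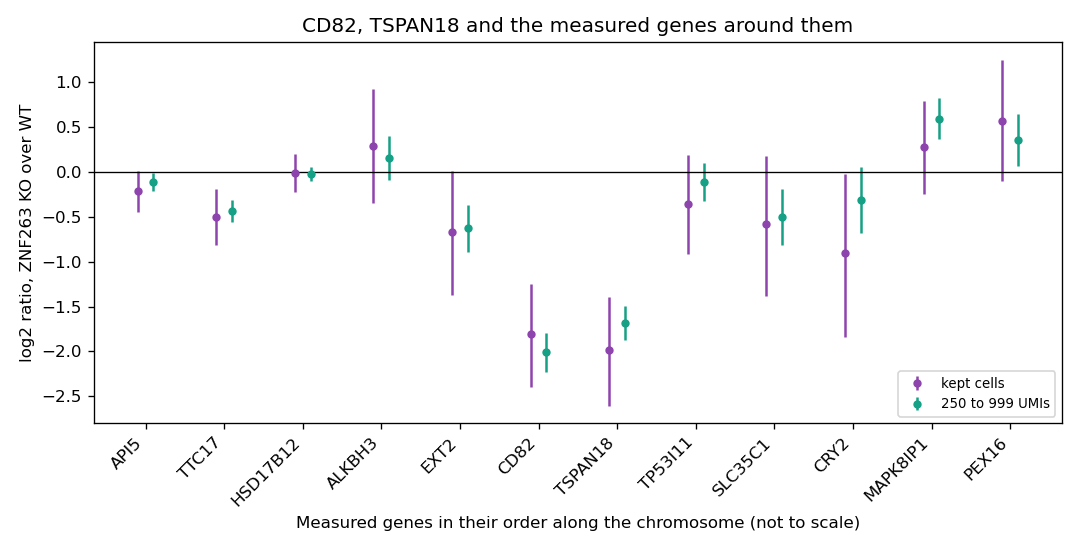
log2 ratio of ZNF263 KO over WT for CD82, TSPAN18 and the 10 nearest measured genes, drawn in their order along chromosome 11 with even spacing. Points are kept cells (purple) and shallow barcodes (green) of the 1 library of each genotype with exact 95% counting intervals; CD82 and TSPAN18 lie at -1.80 and -1.98 in kept cells, below the 10 genes around them, which range from -0.90 to 0.57.

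Promoters are shown for the 3 measured members with the lowest ratios in kept cells among those with an entry, so that each sequence can be read beside the value of its gene. TSPAN18, the member with the lowest ratio there, had no entry, so its promoter was not searched. The windows are 300 bases long. They run from 250 bases before the start listed for the window to 50 after it and are from RefSeq (GRCh38.p14), 5' to 3' on the gene's strand. The CD82 window lies inside the span given above for CD82, after its first base at 44564409. The bases before that first base were therefore not searched. The letters GGAGGA, a unit that recurs in the G- and A-rich motif of ZNF263, were searched on both strands, and capitals mark them or their reverse complement TCCTCC.
CD82 (chr11:44565413-44565712, plus strand): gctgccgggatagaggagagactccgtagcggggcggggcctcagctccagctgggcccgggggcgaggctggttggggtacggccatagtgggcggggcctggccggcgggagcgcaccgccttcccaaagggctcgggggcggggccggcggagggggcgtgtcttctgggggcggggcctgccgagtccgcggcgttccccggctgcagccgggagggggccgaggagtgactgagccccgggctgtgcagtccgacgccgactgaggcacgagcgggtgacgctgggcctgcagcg
TSPAN5 (chr4:98658562-98658861, minus strand): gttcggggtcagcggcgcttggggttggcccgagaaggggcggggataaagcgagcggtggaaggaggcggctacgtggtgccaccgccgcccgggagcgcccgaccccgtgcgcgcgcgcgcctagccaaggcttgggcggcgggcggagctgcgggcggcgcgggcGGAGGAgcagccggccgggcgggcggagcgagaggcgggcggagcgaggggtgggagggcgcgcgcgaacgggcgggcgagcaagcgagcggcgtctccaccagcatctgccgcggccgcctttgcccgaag
TSPAN13 (chr7:16753505-16753804, plus strand): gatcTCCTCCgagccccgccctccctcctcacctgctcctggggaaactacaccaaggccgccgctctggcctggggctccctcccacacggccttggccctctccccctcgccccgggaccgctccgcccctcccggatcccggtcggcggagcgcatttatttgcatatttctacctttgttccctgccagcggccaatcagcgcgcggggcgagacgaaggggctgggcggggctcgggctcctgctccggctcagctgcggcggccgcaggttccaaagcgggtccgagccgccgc
The letters were not in the CD82 window shown, stood 82 bases before the start of TSPAN5 and, as TCCTCC, 246 bases before the start of TSPAN13. They were in 22 of the 41 windows of tetraspanin genes (53.7%), beside 36.6% of all 35116 windows of the table. Windows of 1 gene can overlap, and CD63 alone has 8 of the 41, most of them with the letters, so the 53.7% leans on that gene. By gene, 11 of the 21 members with a window had the letters in at least 1 window. No such share was computed over all genes. GC content was 76.7% in the CD82 window, 78.3% in that of TSPAN5 and 71.3% in that of TSPAN13, beside a median of 58.7% over all windows. A match describes letters and not binding.

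Across the family, 18 of the 29 members were measured in kept cells and the same number in shallow barcodes. In kept cells 3 members were at least 1.5-fold lower in KO (CD82, TSPAN18 and TSPAN13), or 16.7% of those measured, where 13.0% of all 10129 measured genes were. Only TSPAN7 was at least 1.5-fold higher, or 5.56% of those measured, where 3.94% of all measured genes were. With ratios centred on the median of all measured genes, 2 members were higher and 2 lower, and no share of all genes is given for that setting. In shallow barcodes 2 members were at least 1.5-fold lower (CD82 and TSPAN18), or 11.1%, where 10.1% of all 10148 measured genes were, and 0 were higher, where 2.79% were. These shares are near those of all genes, so the family as a whole is not set apart by them.

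The median log2 ratio of the measured members was -0.07 in kept cells, beside -0.14 over all measured genes, and -0.27 in shallow barcodes, beside -0.15. Without CD82 and TSPAN18 the other 16 ran from -0.62 to 0.66 in kept cells and from -0.53 to 0.39 in shallow barcodes. All 29 members together held 957 CPM in KO and 1027 CPM in WT kept cells, a log2 ratio of -0.10 (interval -0.17 to -0.04). In shallow barcodes they held 1018 CPM in KO and 1175 CPM in WT, a log2 ratio of -0.21 (interval -0.23 to -0.18). Of the 18 measured members, 10 were below 0 in both sets, 5 were above 0 in both, and for TSPAN12, TSPAN14 and TSPAN17 the signs differed.

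**Figure D4:**
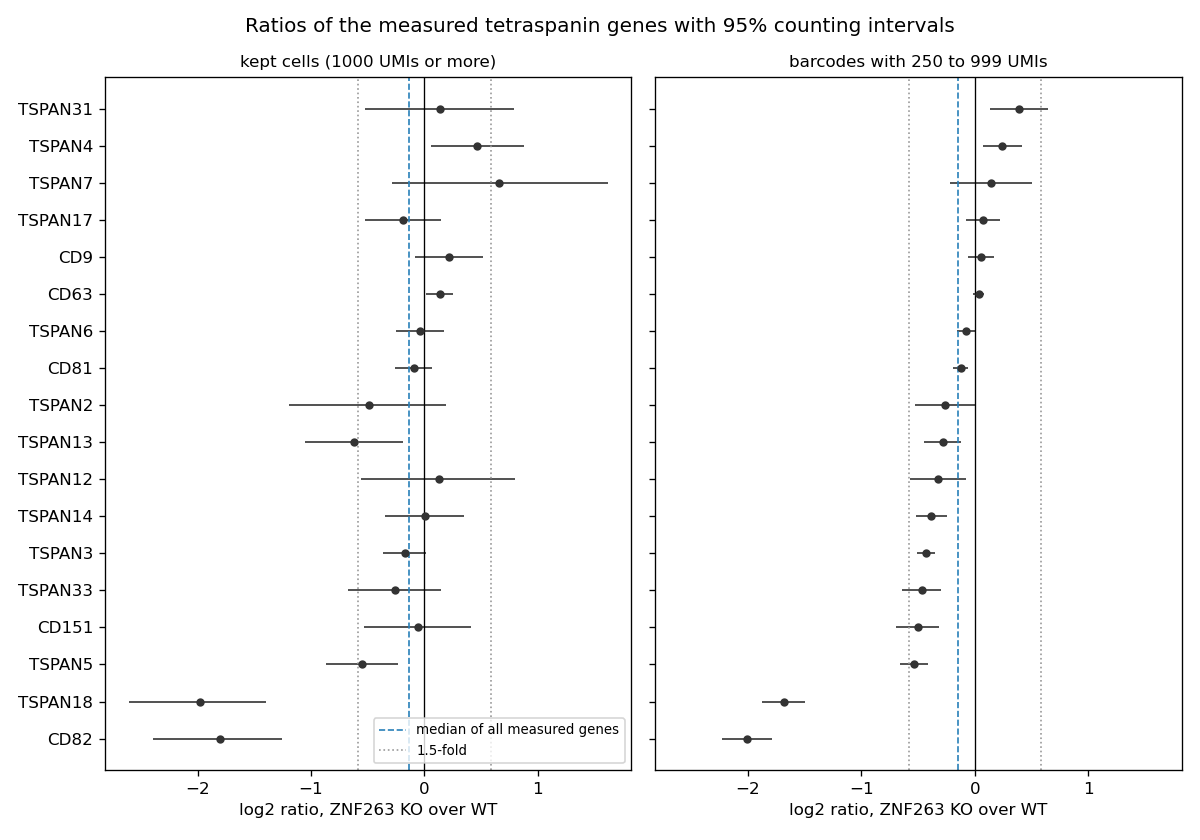
log2 ratio of ZNF263 KO over WT with exact 95% counting intervals for the 18 measured tetraspanin genes in kept cells (left) and in shallow barcodes (right), 1 library per genotype. The dashed line is the median of all measured genes (-0.14 and -0.15) and the dotted lines mark 1.5-fold; CD82 and TSPAN18 lie at the bottom, outside the range of the other 16 genes in both panels.

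The vesicle and surface tetraspanins CD9, CD81 and CD63 differed little. CD63, a protein of late endosomes and lysosomes, was at 299.9 CPM in KO and 273 CPM in WT kept cells, a log2 ratio of 0.13 (interval 0.02 to 0.25), and at 315.9 CPM in KO and 309 CPM in WT shallow barcodes, a log2 ratio of 0.03 (interval -0.02 to 0.08). Levels of CD63, CD81, CD9 and TSPAN3 were higher in both libraries in the cells with more mitochondrial UMIs. CD63 was at 193 CPM in KO and 209 CPM in WT cells under 5% mitochondrial UMIs, and at 386 CPM in KO and 356 CPM in WT cells of 5% to 20%. CD81 was at 107 CPM in KO and 121 CPM in WT in the lower range, and at 180.2 CPM in KO and 204 CPM in WT in the higher one. CD81 was at 147 CPM in KO and 157 CPM in WT kept cells and at 166 CPM in KO and 181 CPM in WT shallow barcodes, where its log2 ratio was -0.13 (interval -0.19 to -0.06). CD9 was at 49.9 CPM in KO and 43.0 CPM in WT kept cells, a log2 ratio of 0.21 (interval -0.09 to 0.51), and had 0.06 (interval -0.06 to 0.17) in shallow barcodes. With ratios centred on the median of all genes CD81 was above 0 in shallow barcodes, at 0.03, as was TSPAN6, at 0.07. After thinning, 24.8% of KO and 23.4% of WT cells held a CD63 UMI, 13.2% of KO and 14.3% of WT cells a CD81 UMI, and 4.64% of KO and 4.29% of WT cells a CD9 UMI. The intervals of KO and WT overlapped for all of these. The shares expected from the pooled RNA of near-empty barcodes were higher, at 26.2% in KO and 25.8% in WT for CD63. They were 15.2% in KO and 17.6% in WT for CD81, and 4.94% in KO and 4.86% in WT for CD9. These shares therefore do not count expressing cells either. At least 1 tetraspanin UMI was in 59.1% of KO thinned cells (interval 57.1% to 61.1%) and in 61.7% of WT thinned cells (interval 59.9% to 63.4%). Free RNA was not separated from these shares.

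CD151 was at 19.1 CPM in KO and 19.8 CPM in WT kept cells, a log2 ratio of -0.05 (interval -0.53 to 0.41). In shallow barcodes it was at 18.3 CPM in KO and 25.9 CPM in WT, a log2 ratio of -0.50 (interval -0.69 to -0.32). This ratio is uncertain because it overlaps POLR2L, a gene of the opposite strand with 2117 UMIs in KO and 2489 in WT kept cells, by 2476 bases in GENCODE 29. TSPAN4, a gene needed for migrasomes, the vesicles left behind by moving cells, lies 4.02 kb after CD151 on chromosome 11 in the RefSeq table. There POLR2L lies between CD151 and TSPAN4 and overlaps neither. TSPAN4 went the other way, at 29.1 CPM in KO and 21.1 CPM in WT kept cells, a log2 ratio of 0.47 (interval 0.06 to 0.88). In shallow barcodes TSPAN4 was at 26.0 CPM in KO and 22.0 CPM in WT, a log2 ratio of 0.24 (interval 0.07 to 0.42).

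Of the TspanC8 genes, which escort ADAM10, 4 were measured and they did not move as 1 group. TSPAN5 was at 35.9 CPM in KO and 52.5 CPM in WT kept cells, a log2 ratio of -0.55 (interval -0.87 to -0.23), and at 41.4 CPM in KO and 60.0 CPM in WT shallow barcodes, a log2 ratio of -0.53 (interval -0.66 to -0.41). Its KO interval lay below its WT interval in both sets. TSPAN33 had log2 ratios of -0.26 (interval -0.67 to 0.15) in kept cells and -0.47 (interval -0.65 to -0.30) in shallow barcodes. TSPAN14 was at 35.3 CPM in both libraries in kept cells, while in shallow barcodes it was at 36.1 CPM in KO and 47.0 CPM in WT, a log2 ratio of -0.38 (interval -0.52 to -0.25). TSPAN17 was at -0.19 (interval -0.53 to 0.15) in kept cells and, with the sign turned, 0.07 (interval -0.08 to 0.22) in shallow barcodes. TSPAN15 had 88 UMIs in KO and 104 in WT shallow barcodes and TSPAN10 had 3 in KO and 5 in WT, both under the minimum level. ADAM10 itself was at 47.6 CPM in KO and 54.0 CPM in WT kept cells, a log2 ratio of -0.18 (interval -0.47 to 0.11), and at -0.24 (interval -0.35 to -0.14) in shallow barcodes.

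Among the remaining measured members, TSPAN3 was at 108 CPM in KO and 122 CPM in WT kept cells and at 102 CPM in KO and 137 CPM in WT shallow barcodes, where its log2 ratio was -0.43 (interval -0.51 to -0.35). TSPAN6 was at 90.0 CPM in KO and 92.3 CPM in WT kept cells, with log2 ratios of -0.04 and -0.08 whose intervals included 0 in both sets. TSPAN13 was at 19.3 CPM in KO and 29.7 CPM in WT kept cells, a log2 ratio of -0.62 (interval -1.06 to -0.19), and at 24.5 CPM in KO and 29.8 CPM in WT shallow barcodes, a smaller log2 ratio of -0.28 (interval -0.45 to -0.12). In kept cells with at most 10% mitochondrial UMIs its log2 ratio was -0.50, under 1.5-fold. Of these, TSPAN3 and TSPAN13 had shallow intervals wholly below 0.

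TSPAN31, once named for its amplification in sarcoma beside CDK4, was at 13.1 CPM in KO and 10.0 CPM in WT shallow barcodes, a log2 ratio of 0.39 (interval 0.14 to 0.65), and at 0.14 (interval -0.52 to 0.79) in kept cells. Its log2 ratio was -0.67 (8 UMIs in KO and 21 in WT) in kept cells under 5% mitochondrial UMIs and -0.09 in barcodes with 100 to under 250 UMIs, so its direction depended on the barcodes used. TSPAN31 also overlaps CDK4, on the opposite strand, by 2485 bases in GENCODE 29. TSPAN12, a co-receptor of the norrin and FZD4 signal in the retina, was at 11.002 CPM in KO and 13.8 CPM in WT shallow barcodes, a log2 ratio of -0.33 (interval -0.57 to -0.08), and at 0.13 (interval -0.55 to 0.80) in kept cells. Its log2 ratio was 1.33 (13 UMIs in KO and 7 in WT) at a minimum of 2000 UMIs and -0.35 at a minimum of 500 UMIs, so its direction too depended on the barcodes used. TSPAN2, known from oligodendrocytes, had log2 ratios of -0.49 and -0.26, and TSPAN7, an X-linked gene of neurons, had 0.66 and 0.14, and for both genes the intervals included 0 in both sets.

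The other 11 members had a mean under 5 CPM in both sets. TSPAN11 was at 3.41 CPM in KO and 5.76 CPM in WT shallow barcodes (72 UMIs in KO and 137 in WT), a log2 ratio of -0.75 (interval -1.19 to -0.33). TSPAN9 was at 4.22 CPM in KO and 5.55 CPM in WT shallow barcodes, a log2 ratio of -0.39 (interval -0.80 to 0.00). The leukocyte genes CD37 and CD53 held 7 and 10 UMIs in KO and 8 and 4 UMIs in WT shallow barcodes. TSPAN1, TSPAN8, TSPAN16, TSPAN19 and TSPAN32 held between 0 and 5 UMIs in each library there, and TSPAN32 held 0 in both. Taken as 3 counts of the total, a count of 0 allows a share of up to 0.131% of KO and 0.102% of WT thinned kept cells with a UMI, and the exact Clopper-Pearson upper limit is 0.161% of KO and 0.126% of WT cells.

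The partners of tetraspanins were read from 9 lists of 69 genes in all, of which 67 were listed and 42 measured in kept cells. At least 1.5-fold lower in KO were 4 of the 42 and at least 1.5-fold higher were 2, beside 13.0% and 3.94% of all measured genes. With ratios centred on the median of all genes these counts were 4 lower and 5 higher, with no share of all genes given for that setting. Their median log2 ratio was -0.06 in kept cells and -0.22 in shallow barcodes. Of 7 measured integrin genes 1, ITGA5, the fibronectin receptor subunit, was at least 1.5-fold lower, at 2.80 CPM in KO and 8.60 CPM in WT kept cells, and at -1.47 on the log2 scale (78 UMIs in KO and 243 in WT) in shallow barcodes. ITGB1, the common partner of these receptors, was at 104 CPM in KO and 123 CPM in WT, a log2 ratio of -0.24 (interval -0.44 to -0.05). ITGA7 and ITGA2 had log2 ratios of 0.55 and 0.38 in kept cells with intervals that included 0.

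The list of immunoglobulin and claudin partners also holds other surface proteins, among them EPCAM, CD46 and MMP14. Of its 5 measured genes, none a claudin, 1 was at least 1.5-fold higher in kept cells, beside 3.94% of all measured genes. This was EPCAM, at 206 CPM in KO and 115 CPM in WT. IGSF8, which binds CD9 and CD81 directly, was at 15.3 CPM in KO and 10.2 CPM in WT shallow barcodes, a log2 ratio of 0.59 (interval 0.34 to 0.83), and at 0.30 in kept cells. CD46 and MMP14 had log2 ratios of -0.49 and -0.50 in kept cells. The linkers to actin EZR, RDX and MSN were within 1.5-fold, at 0.49, 0.18 and -0.17, as were the measured palmitoyltransferases ZDHHC20 and ZDHHC5, at -0.31 and -0.03.

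Among 7 measured signalling partners STIM1, the calcium sensor that opens ORAI1, was the 1 past 1.5-fold in kept cells. It was lower, as were 13.0% of all measured genes by that fold. STIM1 was at 4.76 CPM in KO and 10.97 CPM in WT kept cells, a log2 ratio of -1.20. In shallow barcodes it had -0.89 (136 UMIs in KO and 284 in WT). ORAI1, the channel that TSPAN18 binds, held 30 UMIs in KO and 49 in WT kept cells, a log2 ratio of -0.33, and had -0.23 in shallow barcodes. PRKCB was at 0.47 in kept cells and -0.60 in shallow barcodes, PRKCA at -0.52 and -0.55, and PI4KB at 0.43 and 0.04. Of 17 measured vesicle sorting genes 2 were at least 1.5-fold lower and 1 higher in kept cells, beside 13.0% and 3.94% of all measured genes. The genes past that fold were the syndecans SDC3, SDC1 and SDC4, heparan sulfate carriers that bind the sorting protein syntenin. SDC3 was at 7.85 CPM in KO and 20.2 CPM in WT kept cells, SDC1 at 12.3 CPM in KO and 21.7 CPM in WT, and SDC4 at 19.9 CPM in KO and 10.1 CPM in WT. In shallow barcodes their log2 ratios were -1.16, -0.31 and 0.87, so SDC1 was under 1.5-fold there. LAMP1 had a log2 ratio of 0.38 in kept cells. No gene of the L6 family or of the tetraspanins outside the symbol rule was measured.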

How the data were processed

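Per the labels' protocols, libraries were made by a form of Microwell-seq with poly(A) capture. The deposited tables hold raw UMI counts, 1 row for each gene in each barcode. The submitters' processing notes list Subread, featureCounts 2.0.1, STAR 2.7.10a and UMI-tools 1.1.2 with the build hg38, without roles. The annotation, strand setting and any barcode filter were not given in the sources used here. The KO counts ran to 15 entries more than stated, and none was dropped.

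UMIs were summed per set of barcodes and scaled to CPM. Levels have exact Poisson intervals, ratios exact conditional binomial intervals and shares exact Clopper-Pearson intervals. With 1 library per genotype no p-value or standard error was computed. Doublets were not called, and an alternative left out barcodes over 4 times the median UMI count. The ratio intervals were tested on simulated counts, and the intervals of levels and shares were not. Genes named are all members, up to 4 measured partners per list with the largest ratios, 5 measured neighbours on each side of CD82 and TSPAN18, and ZNF263. ORAI1, LINC02704, the promoters of TSPAN5 and TSPAN13 and the CRABP1 split were chosen after their values were seen. Members and lists were chosen with earlier results of these data known. Protein sequences are not used here. Python 3.11.15, NumPy 2.4.6, SciPy 1.17.1 and pandas 2.3.3 were used.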

Additional observations from a re-analysis of the deposited data

How the results depend on the processing

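CD82 and TSPAN18 kept their direction and stayed at least 1.5-fold lower in KO under each barcode set and scaling tried. In kept cells CD82 ranged from -2.14 to -1.48 and TSPAN18 from -2.32 to -1.51 on the log2 scale, and in shallow barcodes from -2.08 to -1.55 and from -1.79 to -1.53. The log2 ratio of the share of thinned cells with a UMI was -2.27 for TSPAN18 and -1.47 for CD82. It was -1.94 and -1.70 without thinning and -1.72 and -1.99 at 500 UMIs per cell.

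Counts of the other members depended on the setting. Shares of all measured genes are given above for the main settings only. Counts at the other settings have no such share beside them, so they only describe the members. Members at least 1.5-fold higher in kept cells, 1 as reported, numbered 0 at a minimum of 500 UMIs, at a mean of at least 20 CPM, at 2-fold and in both ranges of mitochondrial share, and 2 at a minimum of 2000 UMIs and with centred ratios. Members lower, 3 as reported, numbered 5 at a minimum of 2000 UMIs and 6 with at least 1 UMI in both libraries as the minimum. They numbered 2 at a mitochondrial limit of 10%, with the total without mitochondrial and ribosomal protein genes, with centred ratios and at 2-fold. TSPAN13 was under 1.5-fold in the first 3 of these, at -0.50, -0.55 and -0.48, and at a minimum of 500 UMIs, at -0.44. In shallow barcodes 4 were lower at 500 to under 1000 UMIs, and with at least 1 UMI in both libraries 4 were lower and 1 higher. The cause was not tested. The partner lists had 5 genes higher with centred ratios and medians of -0.22 in shallow barcodes and 0.0817 with centred ratios, against -0.06. Of single-member ratios under these settings, 270 stayed within their counting interval and 18 moved outside it. The split by mitochondrial share, the range of 100 to under 250 UMIs and leaving out shared barcodes were chosen after seeing the data. No paired analysis was possible because each genotype has 1 library. Members under 5 CPM had at most 28 UMIs per library in kept cells.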
